A study of Mus musculus with 12 samples.

Results

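The Rab GTPase family is described here through 41 named Rab genes, chosen by gene symbol from 35675 genes with annotated transcripts. All 41 passed the count filter and were among the 13456 genes tested. Rab proteins are small GTPases that sit on the membranes of vesicles and organelles. They switch between an inactive form, held in the cytosol by escort proteins (GDI), and an active form that exchange factors load with GTP and GTPase-activating proteins turn off again. Active Rabs recruit effectors such as tethers and motors, and each member of the family serves a different leg of membrane traffic. Oligodendrocytes route myelin proteins through endosomal stores before delivery to the myelin membrane, and the Rab8 and Rab11 proteins recruit the exocyst, the tethering complex that the Ral GTPases also bind.

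RNA was sequenced from spinal cord cells of mice at postnatal day 10 (P10), sorted on red tdTomato fluorescence and a large forward scatter signal, with 1 library for each mouse and 4 mice in each group. RalAB cKO mice carried CnpCre with the floxed alleles RalAflox/flox and RalBflox/flox, RalA cKO mice carried CnpCre with RalAflox/flox, and control mice carried CnpCre with no floxed Ral allele in their label. All 12 mice also carried the reporter Rosa26-StopFlox-TdTomato, and Cre was driven from the Cnp promoter, which is active in myelinating glia. The sex of the mice and the extent of the deletion are not given in the sources used here. Levels of a gene are given as TMM-scaled counts per 1 M counts of a library (CPM), levels set across genes as transcripts per 1 M transcripts (TPM, which is per length), and differences as log2 fold changes ± standard error with n = 4 mice in each group. A gene was called when its p-value from the edgeR quasi-likelihood test, adjusted over all genes tested, was under 0.05.

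Libraries held 10.93 to 15.44 M estimated counts. The targeted gene Rala stood at 42.9, 32.2, 39.8 and 36.1 CPM across RalAB cKO mice 1 to 4, 33.1, 42.4, 42.7 and 41.8 CPM across RalA cKO mice and 35.5, 59.3, 47.01 and 56.3 CPM across control mice. In RalAB cKO it differed from control by −0.39 ± 0.15 (adjusted p = 0.0832) and in RalA cKO by −0.31 ± 0.15 (adjusted p = 0.236), so neither passed. Rala was called lower in RalAB cKO against control with transcript length offsets (−0.63, adjusted p = 0.00398), with limma voom and quality weights, and without control mouse 1 or RalAB cKO mouse 1. In RalA cKO it was called with length offsets (−0.58, adjusted p = 0.0305) and without both of those mice. Ralb, the second target in RalAB cKO, stood at 14.03, 17.2, 15.9 and 16.05 CPM across RalAB cKO mice 1 to 4, 17.5, 17.4, 13.4 and 13.4 CPM across RalA cKO mice and 18.9, 15.1, 23.3 and 19.6 CPM across control mice, and its difference from control in RalAB cKO was −0.28 ± 0.15 (adjusted p = 0.216). The counts per gene as tested here did not show either deletion past the threshold, and the groups are named as labelled. Oligodendrocyte markers were high in every library, with 8 genes summing to 95700 to 124000 CPM in RalAB cKO, 108000 to 126000 CPM in RalA cKO and 91900 to 119000 CPM in control. Single genes in this sum differed in both directions. Of the 8, 1 was called higher and 3 lower in RalAB cKO than in control, and 1 higher and 2 lower than in RalA cKO. Mbp, the largest part of the sum, lay at 44446 to 62495 CPM in RalAB cKO and 35960 to 50234 CPM in control. Mog lay at 1435 to 1745 CPM in RalAB cKO and 1859 to 2730 CPM in control. Microglial markers differed between the groups, and 15 genes summed to 1340 to 2440 CPM in RalAB cKO, 202 to 338 CPM in RalA cKO and 300.4 to 668 CPM in control. Of these 15 genes, 14 were called higher in RalAB cKO than in control, all 15 higher than in RalA cKO, and 1 lower in RalA cKO than in control. Astrocyte markers summed to 291 to 327 CPM in RalAB cKO, 353 to 531 CPM in RalA cKO and 398 to 660.4 CPM in control. Neuronal markers summed to 75.4 to 146 CPM in RalAB cKO, 107 to 154 CPM in RalA cKO and 146 to 277 CPM in control. Oligodendrocyte precursor markers summed to 2150 to 2630 CPM in RalAB cKO, 2250 to 2720 CPM in RalA cKO and 2410 to 3580 CPM in control, and 2 of 4 were called lower in RalAB cKO than in control. Pdgfra, the defining receptor of these precursors, stood at 11.99 to 53.3 CPM in RalAB cKO, 40.7 to 79.2 CPM in RalA cKO and 77.7 to 149 CPM in control. No marker of the 8 cell types was at 0 in all libraries. In sorted bulk RNA, fewer cells of a type and less RNA in each cell cannot be told apart. By a chi-square on the counts of all genes in pairs of mice, control mouse 1 and RalAB cKO mouse 1 stood farthest from the other mice of their groups. Their pairs had 27.4 to 39.5 and 19.7 to 31.8 per degree of freedom. By another measure, the second principal component of log CPM, control mouse 3 was the control mouse farthest out (−48.1, beside −21.7 to 0.136).

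**Figure D1:**
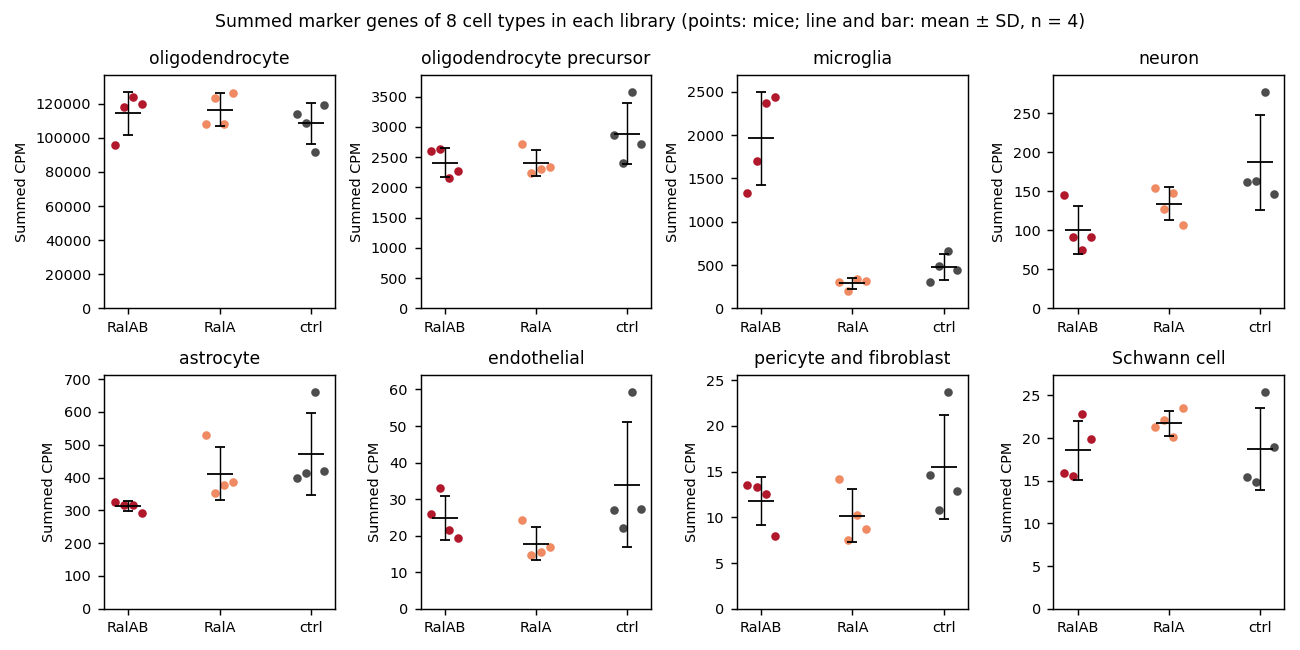
Summed CPM of the marker genes of 8 cell types (vertical axis) in RalAB cKO, RalA cKO and control mice, with a point for each mouse and the mean ± SD (n = 4) as line and bar. The microglial sum lies at 1340 to 2440 CPM in RalAB cKO mice, above every RalA cKO and control mouse, while the oligodendrocyte sums of the 3 groups overlap.

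In sum the Rab genes held 0.408% to 0.415% of all TPM in RalAB cKO, 0.397% to 0.404% in RalA cKO and 0.404% to 0.434% in control. Levels of single members spanned a wide range in control, as the plot of levels by library shows. Rab33a, a Golgi and secretory vesicle Rab best known from neurons, was the most abundant at 512.4 ± 28.7 TPM (SD, n = 4). Rab5c, which acts in early endosome fusion, followed at 348 ± 30.2 TPM, and Rab11b of the recycling endosome at 331 ± 35.2 TPM. Next came Rab1b of ER-to-Golgi transport at 299.6 ± 39.3 TPM, Rab7 of late endosomes at 293 ± 56.6 TPM and Rab11a, also of recycling endosomes, at 280.1 ± 39.2 TPM. These 6 genes made up 48.4% to 50.8% of the family's TPM in RalAB cKO, 47.9% to 50.5% in RalA cKO and 47.3% to 51.4% in control. In the order of control means, neighbours were apart without overlap only after Rab33a, Rab3a, Rab24, Rab23 and Rab3d, so neighbours from Rab5c through Rab3a, ranks 2 to 9, could not be ordered by 4 mice, although members farther apart in that run, such as Rab5c and Rab3a, did not overlap. At the lower end stood Rab13 (1.53 TPM), Rab20 (1.2 TPM), Rab27a (0.519 TPM) and Rab27b (0.508 TPM).

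**Figure D2:**
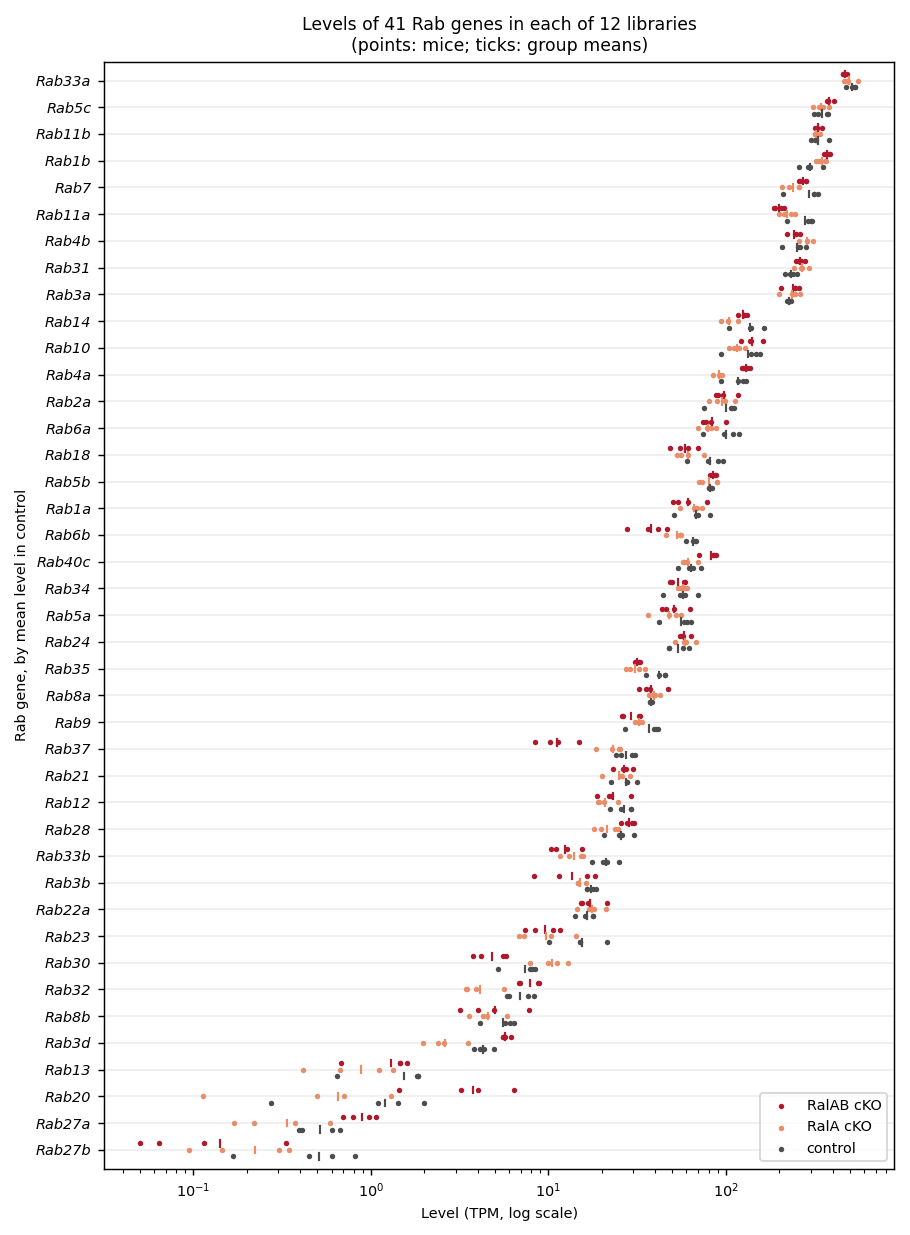
Levels of the 41 Rab genes in TPM (log scale, horizontal axis), ordered by the control mean, with a point for each RalAB cKO, RalA cKO and control mouse and a tick at each group mean. Rab33a tops the order at 512.4 TPM in control, and the lowest genes, from Rab13 down, lie at or under 1.53 TPM in control.

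Of the 6 most abundant members, Rab1b and Rab11a separated RalAB cKO from control in TPM, and the other 4 overlapped between all groups. Rab33a had 471, 459, 455 and 484 TPM across RalAB cKO mice 1 to 4, 486, 559, 462 and 479.9 TPM across RalA cKO mice and 533, 511, 472 and 534 TPM across control mice, and the 3 groups overlapped. Its difference between RalAB cKO and control was −0.01 ± 0.12 (95% interval −0.25 to 0.24), a value near 0 whose sign turned under 3 alternative scalings or tests. Rab5c had 376, 374, 376 and 406 TPM across RalAB cKO mice 1 to 4, 381, 354, 311 and 333 TPM across RalA cKO mice and 377, 314, 331 and 369 TPM across control mice, again with overlapping groups, and its count difference between RalAB cKO and control was 0.31 ± 0.11 (adjusted p = 0.0697 in edgeR). This difference was called with the DESeq2 test (0.32, adjusted p = 0.0426), with voom and quality weights (0.35, adjusted p = 0.012), without control mouse 1 or RalAB cKO mouse 1, and without both (0.43, adjusted p = 0.00956). Over all alternatives its adjusted p ran up to 0.202. Rab11b, the more abundant Rab11 gene, had 318, 346, 326 and 325 TPM across RalAB cKO mice 1 to 4, 316, 319, 321 and 339.6 TPM across RalA cKO mice and 382, 320.4, 303 and 317 TPM across control mice, and the count difference between RalAB cKO and control was 0.13 ± 0.11 (95% interval −0.11 to 0.38). Rab7, which drives maturation of late endosomes, had 284, 258, 282 and 262 TPM across RalAB cKO mice 1 to 4, 259, 207, 257 and 228 TPM across RalA cKO mice and 209, 314, 332 and 315 TPM across control mice, and control mouse 1 was as low as the lowest RalA cKO mouse. The RalAB cKO difference for Rab7 was 0.05 ± 0.12 (95% interval −0.20 to 0.30). Rab1b had 356, 368, 383 and 385 TPM across RalAB cKO mice 1 to 4, 333, 363, 322 and 368 TPM across RalA cKO mice and 352, 291, 257 and 298 TPM across control mice, so RalAB cKO lay above control. Rab11a had 206, 188, 190.0 and 212 TPM across RalAB cKO mice 1 to 4, 233, 212, 245 and 199.6 TPM across RalA cKO mice and 222, 306, 289 and 303 TPM across control mice, so RalAB cKO lay below control. Both genes were called on counts in 1 comparison each and are described again with their classes. The TPM of Rab11a needs care: 38.6% of it in control came from a noncoding transcript only 397 bases long, which weighs heavily in a measure per length. Other tested Rab11a transcripts of 462 to 603 bases held 24.3 to 52.5 TPM each in control, and that of 2336 bases held 19.7 TPM. The rank of Rab11a and its separation from control in TPM rest largely on these short transcripts.

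Set against control, RalAB cKO had 10 called members of 41, or 24.4% of the family beside 18.4% of all genes tested. Of these, 5 were higher, beside 9.39% of all genes, and 5 lower, beside 9.02%. The groups did not overlap for 8 members, beside 19.2% of all genes tested, and 13 had an unadjusted p under 0.05, beside 32.1%. Rab20, Rab27a and Rab27b reached the level of the count filter mainly in the groups where they were higher. Without these 3, all of them called here, 7 of 38 members were called, or 18.4%, 3 of them higher and 4 lower. Rab13, also near the filter but not called, was kept among the 38. The share of all genes, 18.4% as well, still holds genes near the filter, so the 2 percentages come from unlike sets. The median difference of the family was 0.06 beside −0.01 for all genes, and the median size of the difference was 0.19 beside 0.26. Between the mutants, RalAB cKO against RalA cKO, 9 members were called, or 22% beside 11.5% of all genes. Here 5 were higher, beside 7.03% of all genes, and 4 lower, beside 4.5%. The groups did not overlap for 9 members, beside 17.3% of all genes, and 12 had an unadjusted p under 0.05, beside 22.9%. Without Rab20, Rab27a and Rab27b, 7 of 38 were called (3 higher and 4 lower), or 18.4% beside 11.5% of all genes. Of the genes left out, Rab27b was not called here, and the share of all genes again keeps those near the filter. These 2 comparisons share the RalAB cKO mice, so their calls are not independent. In RalA cKO against control no member was called by edgeR, beside 2.78% of all genes (1.71% higher and 1.07% lower), and for 3 members the groups did not overlap, beside 11.4%. At an unadjusted p under 0.05, 6 members stood out there, beside 22.8% of all genes. The DESeq2 test called 2 and limma voom with quality weights called 6 in RalA cKO against control. Dropping control mouse 1 gave 2 calls (Rab1b at 0.51 and Rab23 at −0.53), and dropping RalAB cKO mouse 1 as well gave 5 (Rab1b, Rab4b, Rab23, Rab31 and Rab40c). The count in RalAB cKO against control was 5 without control mouse 2, 6 without control mouse 3, 5 without RalAB cKO mouse 3 and 4 without RalAB cKO mouse 4. Against RalA cKO it was 5 without RalAB cKO mouse 4.

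**Figure D3:**
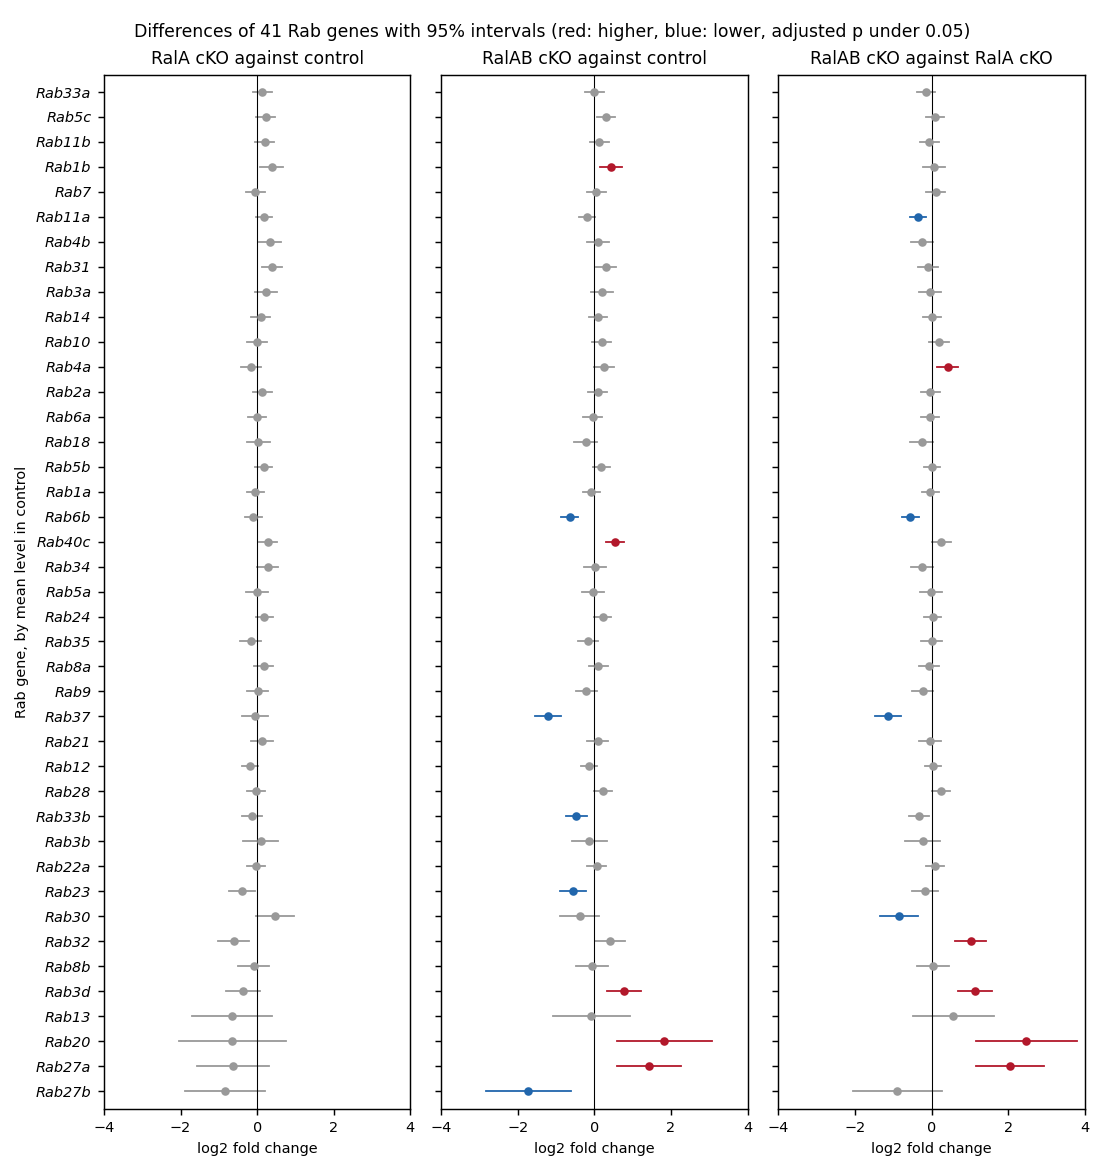
Log2 fold change of each Rab gene (horizontal axis) with its 95% interval in 3 panels, with RalA cKO set against control on the left, RalAB cKO against control in the middle and RalAB cKO against RalA cKO on the right. Red marks genes called higher and blue genes called lower at an adjusted p under 0.05, and no gene is coloured in RalA cKO against control.

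Rab genes of the ER and Golgi numbered 10, of which 3 were called in RalAB cKO against control (30%, beside 18.4% of all genes) and 2 against RalA cKO (20%, beside 11.5%). Rab6b is the Rab6 form enriched in brain and acts in retrograde transport to the Golgi and ER (chr9:103111787-103185276, + strand, GRCm38.p6 as for all positions here). It had 134, 131, 97.1 and 126 CPM across RalAB cKO mice 1 to 4, 181, 195, 176 and 165 CPM across RalA cKO mice and 189.8, 192, 177 and 208 CPM across control mice. Every RalAB cKO mouse was below every mouse of both other groups in CPM. In TPM Rab6b lay at 27.8 to 46.7 in RalAB cKO, 45.9 to 56.1 in RalA cKO and 59.7 to 68.0 in control. By that measure the mutants overlapped and both lay below control without overlap. Rab6b fell by 0.65 ± 0.11 against control (adjusted p = 0.000765) and by 0.55 ± 0.11 against RalA cKO (adjusted p = 0.00259). Both calls held under every alternative and without each single mouse. In RalA cKO the difference from control was −0.10 ± 0.11 (95% interval −0.33 to 0.13). Its close relative Rab6a was not called, at −0.05 ± 0.11 in RalAB cKO against control (95% interval −0.29 to 0.19). The share of Rab6b in the summed TPM of Rab6a and Rab6b was 31.7, 33.3, 26.4 and 32.9% across RalAB cKO mice 1 to 4, 44.2, 41.5, 39.02 and 35.7% across RalA cKO mice and 44.5, 40.8, 37.4 and 36.5% across control mice. RalAB cKO did not overlap with either other group in this share. The neuronal and astrocyte marker sums and the levels of Pdgfra given above were also lower in RalAB cKO than in control. Of the markers tested, 3 of 11 neuronal and 6 of 8 astrocyte genes were called lower and 0 higher. The astrocyte gene Gfap overlapped, at 96.4 to 152 CPM in RalAB cKO and 95.3 to 115 CPM in control. So did Gpr17, at 2078 to 2515 CPM and 2148 to 3141 CPM, which made up most of the precursor marker sum in every library. The part of these cell types in the Rab genes that fell was not tested.

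Rab33b, a Golgi Rab that binds the autophagy factor Atg16l1 (chr3:51483920-51496232, + strand), had 29.2, 24.8, 22.1 and 23.04 CPM across RalAB cKO mice 1 to 4, 26.5, 32.8, 30.9 and 35.01 CPM across RalA cKO mice and 31.8, 39.2, 32.1 and 34.4 CPM across control mice. In CPM all RalAB cKO mice were below all control mice, while the RalA cKO mice overlapped both. In TPM Rab33b lay at 10.4 to 15.4 in RalAB cKO, 11.6 to 15.7 in RalA cKO and 17.5 to 25.0 in control. By that measure both mutants lay below control without overlap. The difference was −0.47 ± 0.12 against control (adjusted p = 0.0153) and −0.34 ± 0.13 against RalA cKO (adjusted p = 0.102, not called). Between the mutants it was called with voom and quality weights, without RalAB cKO mouse 1 (−0.43, adjusted p = 0.0363) and without both mice 1 of RalAB cKO and control. Without control mouse 2, RalAB cKO mouse 3 or RalAB cKO mouse 4 the call against control was lost, with a value of −0.56 to −0.40 and an adjusted p of up to 0.0588 over all single omissions. Within the Rab33 pair, Rab33b took 3.17, 2.71, 2.36 and 2.09% across RalAB cKO mice 1 to 4, 2.33, 2.28, 3.28 and 3.07% across RalA cKO mice and 3.18, 4.66, 4.35 and 3.66% across control mice, so RalAB cKO and control did not overlap.

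Rab1b moves cargo from the ER to the Golgi (chr19:5099205-5107072, - strand) and had 345, 409, 453 and 457 CPM across RalAB cKO mice 1 to 4, 384, 426, 340.1 and 447 CPM across RalA cKO mice and 386, 286, 244 and 313 CPM across control mice. RalAB cKO mouse 1 and control mouse 1 lay inside the range of the other group. It rose by 0.44 ± 0.14 in RalAB cKO against control (adjusted p = 0.0391). In RalA cKO its difference from control was 0.38 ± 0.14 (adjusted p = 0.131, not called), and between the mutants it was 0.06 ± 0.14 (95% interval −0.24 to 0.35). The call in RalAB cKO was lost without RalA cKO mouse 2 and without mouse 2, 3 or 4 of control or of RalAB cKO, with values of 0.32 to 0.56 and an adjusted p of up to 0.125. It was also lost with only the compared groups in the fit, with mouse number as a block and with summed Y-linked expression as a covariate. The RalA cKO difference of Rab1b was called with voom and quality weights and without control mouse 1 (0.51, adjusted p = 0.0363), also with RalAB cKO mouse 1 left out as well. Rab30, another Golgi Rab (chr7:92741603-92844535, + strand), had 7.65, 5.31, 5.67 and 5.4 CPM across RalAB cKO mice 1 to 4, 7.597, 10.3, 14.2 and 11.2 CPM across RalA cKO mice and 5.04, 10.3, 8.44 and 7.73 CPM across control mice. It fell in RalAB cKO against RalA cKO by 0.85 ± 0.24 (adjusted p = 0.0265), with RalAB cKO mouse 1 overlapping the RalA cKO range. Neither mutant differed from control past the threshold, with −0.39 ± 0.24 for RalAB cKO (adjusted p = 0.282) and 0.46 ± 0.23 for RalA cKO (adjusted p = 0.249). Without both mice 1 of RalAB cKO and control, the RalAB cKO difference from control was −0.68 and called (adjusted p = 0.0376). The Rab30 call between the mutants was lost without mouse 2, 3 or 4 of either mutant, and with library totals, mouse number as a block or the Y-linked covariate. Over all alternatives its value ran from −1.20 to −0.653 and its adjusted p up to 0.235. The ER and Golgi members not called were Rab1a, Rab2a, Rab6a, Rab18, Rab33a and Rab34, with differences of −0.23 to 0.09 in RalAB cKO against control.

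Rab genes of regulated secretion numbered 6, and 4 of them passed the threshold in RalAB cKO against control, 2 in each direction (66.7%, beside 18.4% of all genes). Of these, Rab27a and Rab27b were close to the count filter and entered the test through the groups in which they were higher. The share of 66.7% rests in part on them and is no result about the class. Apart from them, the called members were Rab37, which was lower, and Rab3d, which was higher. Rab37 is a Rab of secretory granules, studied in mast cells and in insulin-secreting cells (chr11:115091431-115162236, + strand). It had 17.7, 15.8, 15.3 and 11.9 CPM across RalAB cKO mice 1 to 4, 36.2, 38.2, 24.5 and 35.6 CPM across RalA cKO mice and 35.8, 36.8, 27.9 and 40.3 CPM across control mice. Even the highest RalAB cKO mouse was below the lowest mouse of the other groups. Rab37 fell by 1.21 ± 0.16 against control (adjusted p = 0.000135), to 0.433 of the control level, and by 1.14 ± 0.16 against RalA cKO (adjusted p = 0.000177). Both calls held under every alternative and without each single mouse. Between RalA cKO and control the difference was −0.06 ± 0.16 (95% interval −0.40 to 0.27). The Rab37 gene overlaps Cd300lf on the opposite strand, but that gene averaged 10.2 counts in a library against 358 for Rab37.

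Rab3d, which acts in the maturation of secretory granules in exocrine and immune cells (chr9:21907491-21918192, - strand), had 12.99, 13.3, 14.5 and 13.9 CPM across RalAB cKO mice 1 to 4, 6.44, 5.39, 4.54 and 8.33 CPM across RalA cKO mice and 9.497, 7.54, 5.63 and 9.46 CPM across control mice. The RalAB cKO mice were above all other mice, and the RalA cKO and control mice overlapped. Rab3d rose by 0.77 ± 0.20 in RalAB cKO against control (adjusted p = 0.015) and by 1.14 ± 0.21 against RalA cKO (adjusted p = 0.00133). The call against RalA cKO held in every setting, and that against control was lost with transcript length offsets (0.53, adjusted p = 0.12) and without control mouse 3 (0.62, adjusted p = 0.0504). Rab3d was a small part of its paralog group: its share of the summed TPM of Rab3a, Rab3b and Rab3d was 2.7, 2.01, 2.18 and 2.08% across RalAB cKO mice 1 to 4, 0.97, 0.86, 0.92 and 1.4% across RalA cKO mice and 1.98, 1.7, 1.58 and 1.65% across control mice. In this share no pair of groups overlapped. Rab3a, the Rab3 form of synaptic vesicles and by far the most abundant of these genes here, differed by 0.20 ± 0.14 in RalAB cKO against control (95% interval −0.08 to 0.49). Rab3b differed by −0.14 ± 0.21 (95% interval −0.59 to 0.32).

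The Rab27 genes, which dock lysosome-related organelles and secretory vesicles, were near the detection limit. Rab27a (chr9:73044854-73097629, + strand) had 1.19, 1.55, 2.16 and 2.13 CPM across RalAB cKO mice 1 to 4, 0.447, 0.177, 0.524 and 0.498 CPM across RalA cKO mice and 0.524, 0.714, 0.625 and 0.727 CPM across control mice, or 2 to 28 counts in a library. Only RalAB cKO libraries reached the level of the count filter, 4 of 4 against 0 in RalA cKO and 0 in control, so Rab27a entered the test through the group in which it was high. Its fitted difference is therefore given as a description, at 1.43 ± 0.39 against control and 2.06 ± 0.42 against RalA cKO. With transcript length offsets these values were 0.93 and 1.37. The RalAB cKO mice were above all other mice. Rab27b had 0.668, 0.163, 0.16 and 0.456 CPM across RalAB cKO mice 1 to 4, 0.804, 0.354, 0.96 and 0.64 CPM across RalA cKO mice and 0.786, 1.19, 1.94 and 1.0 CPM across control mice, or 2 to 31 counts. The level of the filter was reached by 0 RalAB cKO, 2 RalA cKO and 3 control libraries, so Rab27b entered the test without RalAB cKO. RalAB cKO and control did not overlap, and the fitted difference, again a description, was −1.73 ± 0.52, with −2.35 to −1.36 over all alternatives. It did not pass the threshold without control mouse 2 or 3, without RalAB cKO mouse 2, 3 or 4, without the filter, with mouse number as a block, with length offsets or with the Y-linked covariate.

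Of 10 Rab genes of recycling and delivery to the plasma membrane, the leg on which the exocyst acts, none was called in RalAB cKO against control, beside 18.4% of all genes. None of them reached an unadjusted p under 0.05 in that comparison, DESeq2 called 0, voom with quality weights called 1 (Rab4a), length offsets called 1 (Rab11a), leaving out both mice 1 of RalAB cKO and control called 1 (Rab4a), and their median difference was 0.09. Against RalA cKO, 1 was called higher and 1 lower (20%, beside 11.5% of all genes). Rab11a of the recycling endosome (chr9:64715299-64737758, - strand) had 72.1, 69.7, 71.6 and 68.8 CPM across RalAB cKO mice 1 to 4, 77.2, 93.7, 92.6 and 95.8 CPM across RalA cKO mice and 70.3, 85.7, 78.9 and 85.7 CPM across control mice. The RalAB cKO mice lay below all RalA cKO mice and overlapped with control in CPM, and the difference was −0.35 ± 0.10 against RalA cKO (adjusted p = 0.0282). It was −0.18 ± 0.10 against control (adjusted p = 0.212). With length offsets the difference from control was −0.36 and called (adjusted p = 0.0395), and in TPM these groups did not overlap. The call against RalA cKO was lost without mouse 2, 3 or 4 of either mutant (values of −0.42 to −0.32, adjusted p up to 0.0901), and with library totals, no filter, mouse number as a block, length offsets or the Y-linked covariate (−0.22 at the smallest, adjusted p up to 0.286). For RalA cKO against control the sign turned with length offsets, −0.14 in place of 0.17 ± 0.10, so Rab11a has no direction there.

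Rab4a returns receptors from early endosomes to the surface (chr8:123805985-123835287, + strand). It had 84.6, 96.9, 107 and 117 CPM across RalAB cKO mice 1 to 4, 75.96, 73.3, 73.3 and 81.4 CPM across RalA cKO mice and 96.1, 91.8, 65.3 and 86.2 CPM across control mice. RalAB cKO was above RalA cKO without overlap, with a difference of 0.42 ± 0.13 (adjusted p = 0.0419), while the difference from control was 0.26 ± 0.13 in RalAB cKO (adjusted p = 0.17) and −0.16 ± 0.13 in RalA cKO (adjusted p = 0.463). The call was lost without any single RalA cKO mouse, without control mouse 2 or 4, and without RalAB cKO mouse 2, 3 or 4, and with mouse number as a block or the Y-linked covariate. Over all alternatives the value was 0.32 to 0.49 and the adjusted p up to 0.293. The RalAB cKO difference of Rab4a from control was called with voom and quality weights and without both mice 1 of RalAB cKO and control (0.41, adjusted p = 0.0282). Rab4a shares exons on the same strand with a predicted gene, Gm20388, which averaged 1300 counts against 1124 for Rab4a, so reads could be split between them. The sum of both differed by 0.38 ± 0.12 between the mutants (adjusted p = 0.0521) and was not called. In TPM, Rab4a made up 37.2, 33.4, 32.5 and 36.04% across RalAB cKO mice 1 to 4, 22.8, 22.8, 26.97 and 24.4% across RalA cKO mice and 30.5, 33.2, 30.99 and 31.6% across control mice of the Rab4 pair. Both RalAB cKO and control lay above RalA cKO without overlap in that share. Rab4b itself stood at 243 TPM in RalAB cKO, 285 TPM in RalA cKO and 252 TPM in control, and its largest difference was 0.34 ± 0.14 in RalA cKO against control (adjusted p = 0.162). The other members of this class were Rab8a, Rab8b, Rab10, Rab11b, Rab13, Rab14 and Rab35. Their differences ran from −0.17 to 0.19 in RalAB cKO against control. Rab35, known for exosome release from oligodendrocytes, was at −0.17 ± 0.13 there (95% interval −0.44 to 0.11), and Rab8a, a partner of the exocyst, at 0.11 ± 0.12 (95% interval −0.15 to 0.36).

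**Figure D4:**
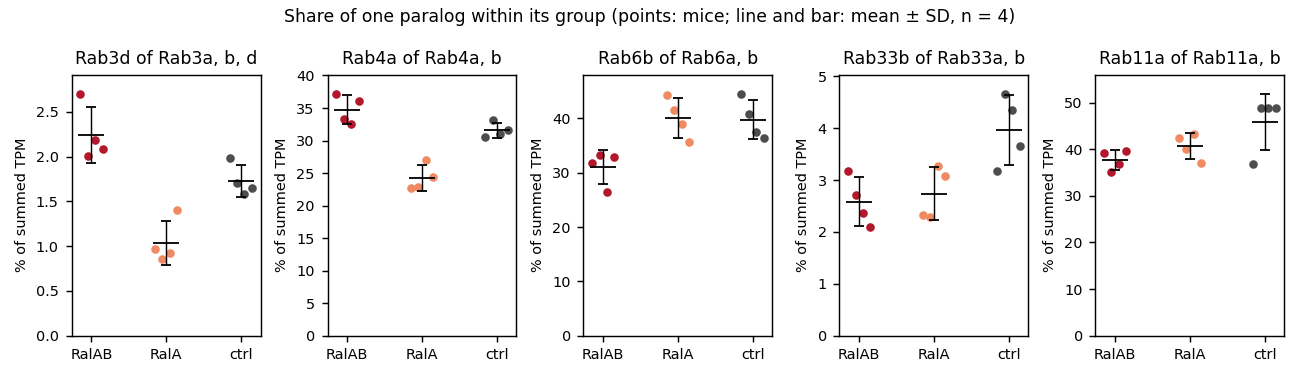
Share of a Rab gene in the summed TPM of its paralog group (vertical axis, percent) in RalAB cKO, RalA cKO and control mice, with a point for each mouse and the mean ± SD (n = 4). The Rab3d share separates all 3 groups, the Rab4a share of RalA cKO lies below both others, the Rab6b share of RalAB cKO lies below both others, and the Rab33b share of RalAB cKO lies below that of control.

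Early endosome and phagosome Rabs numbered 7, and Rab20 was the single member called (14.3% of the class in RalAB cKO against control, beside 18.4% of all genes, and 14.3% against RalA cKO, beside 11.5%). Rab20 acts in phagosome maturation in macrophages (chr8:11453518-11478710, - strand). It had 2.08, 1.06, 3.12 and 5.02 CPM across RalAB cKO mice 1 to 4, 0.983, 0.088, 0.349 and 0.569 CPM across RalA cKO mice and 0.196, 0.714, 1.25 and 1.0 CPM across control mice, or 1 to 66 counts in a library. The level of the filter was reached by 4 RalAB cKO, 1 RalA cKO and 2 control libraries, so its entry into the test rested mainly on RalAB cKO. The fitted differences and calls of Rab20 are therefore given as a description. No other member of the class was called by edgeR in these comparisons. The difference was 1.83 ± 0.58 against control (adjusted p = 0.0385), with RalAB cKO mouse 2 inside the control range, and 2.48 ± 0.62 against RalA cKO (adjusted p = 0.0142), without overlap. The call against control was lost without control mouse 1, 2 or 4, without RalAB cKO mouse 3 or 4, and without both mice 1. It was also lost with library totals, voom and quality weights, mouse number as a block or length offsets (values of 1.40 to 2.26 over all alternatives, adjusted p up to 0.166). Against RalA cKO it was lost without RalAB cKO mouse 4 (2.04, adjusted p = 0.071). Rab31, an abundant Rab of the trans-Golgi and endosomes, lay at 571.9 to 746.2 CPM in RalA cKO against 415.5 to 514.1 CPM in control. Those groups did not overlap, yet the difference of 0.39 ± 0.12 was not called (adjusted p = 0.0859). The DESeq2 test, voom with quality weights and leaving out both mice 1 of RalAB cKO and control did call it. In RalAB cKO Rab31 differed from control by 0.31 ± 0.12 (adjusted p = 0.0937), called with voom and quality weights, without RalAB cKO mouse 1 and without both mice 1. Rab5a, Rab5b, Rab5c, Rab21 and Rab22a differed by −0.04 to 0.31 in RalAB cKO against control.

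Late endosome, lysosome and autophagy Rabs numbered 5, with none called against control by edgeR and 1 against RalA cKO (20%, beside 11.5% of all genes). Rab32, a Rab of lysosome-related organelles that also binds mitochondria (chr10:10545002-10558265, - strand), had 9.95, 9.06, 11.2 and 9.28 CPM across RalAB cKO mice 1 to 4, 4.74, 4.69, 6.02 and 4.06 CPM across RalA cKO mice and 6.55, 9.04, 6.25 and 8.002 CPM across control mice. RalAB cKO mice were above all mice of the other groups, and RalA cKO mice below all of them. Rab32 rose by 1.02 ± 0.19 in RalAB cKO against RalA cKO (adjusted p = 0.00152), a call that held in every setting. Against control the differences did not pass, at 0.41 ± 0.18 in RalAB cKO (adjusted p = 0.137) and −0.61 ± 0.19 in RalA cKO (adjusted p = 0.0817). The DESeq2 test (−0.60, adjusted p = 0.0494) and voom with quality weights (−0.71, adjusted p = 0.0231) did call the RalA cKO difference of Rab32. Rab7, Rab9, Rab12 and Rab24 were not called, with differences of −0.21 to 0.21 in RalAB cKO against control.

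In 9 of 41 members the mean CPM was highest in RalAB cKO, lower in control and lowest in RalA cKO, and the summed microglial markers had the same order. The share of all tested genes with this order was not counted, so the count is no result about the family. Of these 9, Rab3d, Rab20, Rab27a and Rab32 were at or under 14.54 CPM in any library. The other 5 were the more abundant Rab4a, Rab7, Rab10, Rab22a and Rab28, of which Rab4a was called against RalA cKO. Whether the microglial RNA had a part in these values was not tested. To show what lies ahead of the start of the 4 low genes, and of the most abundant member for comparison, the 250 bases upstream of the RefSeq start follow, read from 5′ to 3′ on the strand of the gene (RefSeq, GRCm38.p6). Capitals mark matches on either strand to an E-box (CACGTG), the core of the PU.1 motif of myeloid cells (GAGGAAG), an AP-1 site (TGANTCA), a GC box (GGGCGG) and a CCAAT box (CCAAT).
Rab3d, chr9:21918184-21918433, - strand: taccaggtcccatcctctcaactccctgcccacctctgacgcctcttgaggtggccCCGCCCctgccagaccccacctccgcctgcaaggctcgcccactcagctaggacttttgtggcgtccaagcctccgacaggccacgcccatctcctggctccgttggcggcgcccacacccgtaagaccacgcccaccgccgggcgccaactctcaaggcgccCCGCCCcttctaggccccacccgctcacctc
Rab20, chr8:11478641-11478890, - strand: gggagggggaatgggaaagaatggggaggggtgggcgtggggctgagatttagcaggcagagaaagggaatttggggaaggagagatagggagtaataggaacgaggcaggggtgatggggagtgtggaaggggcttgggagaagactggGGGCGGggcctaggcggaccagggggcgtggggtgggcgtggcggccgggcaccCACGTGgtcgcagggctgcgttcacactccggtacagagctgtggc
Rab27a, chr9:73044560-73044809, + strand: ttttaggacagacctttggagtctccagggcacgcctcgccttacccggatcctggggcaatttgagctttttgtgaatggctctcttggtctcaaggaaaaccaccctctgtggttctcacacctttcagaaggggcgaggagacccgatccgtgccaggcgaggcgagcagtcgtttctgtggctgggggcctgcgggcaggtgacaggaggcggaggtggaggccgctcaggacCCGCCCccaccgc
Rab32, chr10:10558208-10558457, - strand: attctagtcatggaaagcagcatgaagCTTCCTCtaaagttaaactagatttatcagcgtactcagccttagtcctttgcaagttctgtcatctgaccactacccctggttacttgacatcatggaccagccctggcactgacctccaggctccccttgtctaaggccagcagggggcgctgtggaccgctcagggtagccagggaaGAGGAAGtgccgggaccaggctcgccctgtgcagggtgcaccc
Rab33a, chrX:48519035-48519284, + strand: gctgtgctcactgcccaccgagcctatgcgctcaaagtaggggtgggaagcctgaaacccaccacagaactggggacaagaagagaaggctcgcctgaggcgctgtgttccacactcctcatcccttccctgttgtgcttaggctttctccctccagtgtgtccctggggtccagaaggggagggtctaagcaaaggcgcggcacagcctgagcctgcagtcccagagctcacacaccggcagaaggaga
Rab32 held 2 matches to the PU.1 core and no GC box, Rab3d 2 GC boxes, Rab27a 1 GC box, and Rab20 1 GC box and 1 E-box. Rab33a held none of the 5. In Rab20, Rab32 and Rab3d the last 70, 58 and 9 bases of the window lie within the GENCODE transcript, which starts ahead of the RefSeq start. That part holds the E-box of Rab20 and 1 of the 2 PU.1 matches of Rab32. The RefSeq table had the upstream bases of 35 of the 41 members, which did not include Rab2a, Rab4a, Rab18, Rab27b, Rab30 and Rab37. Among the 35, 26 (74.3%) held a GC box, beside 60.2% of 10288 tested genes and 32.7% of all 32851 upstream windows in the table. A CCAAT box was found in 18 (51.4%), beside 36.6% of tested genes and 33.8% of all windows. The PU.1 core was found in 4 (11.4%), beside 10.5% of tested genes and 10.6% of all. An E-box was found in 3 (8.57%), beside 8.39% and 6.02%, and an AP-1 site in 1 (2.86%), beside 3.73% and 6.75%. A match describes letters in this window and is no evidence of binding.

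The remaining 3 members are Rabs of the cilium or with other roles. Rab40c carries a SOCS box that joins it to a Cullin 5 ubiquitin ligase (chr17:25882114-25919727, - strand). It had 84.2, 100.4, 109.9 and 119 CPM across RalAB cKO mice 1 to 4, 81.6, 88.3, 83.4 and 92.3 CPM across RalA cKO mice and 81.6, 72.02, 65.4 and 65.3 CPM across control mice. In CPM all RalAB cKO mice were above all control mice, and RalA cKO mice overlapped with RalAB cKO. In TPM Rab40c lay at 70.4 to 88.4 in RalAB cKO, 57.5 to 69.2 in RalA cKO and 53.8 to 72.5 in control. By that measure RalAB cKO overlapped with control but not with RalA cKO. A noncoding transcript held 38.7% of the Rab40c TPM in control. Rab40c rose by 0.54 ± 0.11 in RalAB cKO against control (adjusted p = 0.00398), a call that held under every alternative and without each single mouse. In RalA cKO its difference from control was 0.28 ± 0.11 (adjusted p = 0.161), and between the mutants 0.26 ± 0.11 (adjusted p = 0.184). Both of these were called with voom and quality weights and without both mice 1 of RalAB cKO and control, where they were 0.37 (adjusted p = 0.0202) and 0.34 (adjusted p = 0.0205). Rab23, a negative regulator of hedgehog signalling (chr1:33719887-33742564, + strand), had 16.8, 14.6, 18.9 and 14.7 CPM across RalAB cKO mice 1 to 4, 20.1, 17.7, 20.1 and 15.2 CPM across RalA cKO mice and 17.1, 26.1, 27.5 and 25.3 CPM across control mice. Control mouse 1 was the single control mouse within the range of RalAB cKO. Rab23 fell by 0.56 ± 0.16 in RalAB cKO against control (adjusted p = 0.022), and differed by −0.39 ± 0.16 in RalA cKO (adjusted p = 0.159). The RalA cKO difference was called with voom and quality weights and without control mouse 1 (−0.53, adjusted p = 0.0349), also with RalAB cKO mouse 1 left out as well. The RalAB cKO call was lost without control mouse 2, 3 or 4 or RalAB cKO mouse 2 or 4 with length offsets and with the Y-linked covariate (values of −0.70 to −0.49 over all alternatives, adjusted p up to 0.114). Rab28 was not called in any comparison, and its largest difference was 0.24 ± 0.11 in RalAB cKO against RalA cKO (adjusted p = 0.211).

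**Figure D5:**
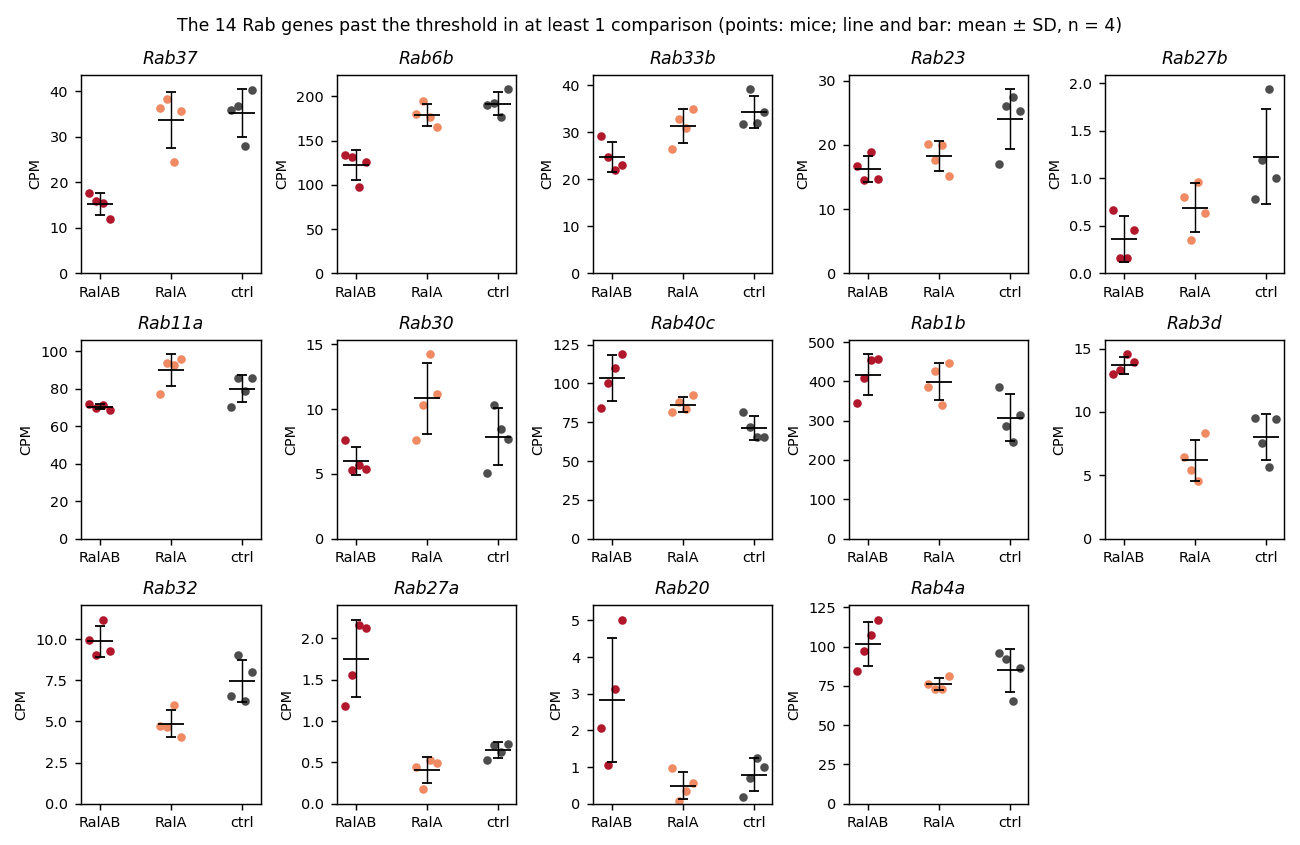
CPM (vertical axis, from 0) of the 14 Rab genes called in at least 1 comparison, with a point for each RalAB cKO, RalA cKO and control mouse and the mean ± SD (n = 4). Rab37 and Rab6b lie below both other groups in all 4 RalAB cKO mice, while Rab3d, Rab32 and Rab27a lie above both.

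Single transcripts were less resolved than genes, since kallisto divides reads among overlapping transcripts. Of 31497 transcripts tested, 98 belonged to 39 of the Rab genes. In RalAB cKO against control, 2 of these were called, beside 1.68% of all transcripts. The main coding transcript of Rab37, which held 87.6% of the Rab37 TPM in control, fell by 1.35 ± 0.17 on the log2 scale (adjusted p = 0.00318). That of Rab6b, with 97.2% of the Rab6b TPM in control, fell by 0.67 ± 0.11 (adjusted p = 0.0101). Between the mutants, 4 were called, beside 1.52% of all transcripts. They were the main coding transcripts of Rab37 (−1.24), Rab6b (−0.55), Rab32 (1.14) and Rab3d (1.11). In RalA cKO against control no Rab transcript was called by edgeR, beside 0.117% of all transcripts.

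Proteins that regulate Rabs were read from lists written from general knowledge. None of 8 escort, GDI and prenylation genes was called by edgeR in any comparison. At an unadjusted p under 0.05 there were 0 in RalAB cKO against control, 2 in RalAB cKO against RalA cKO and 1 in RalA cKO against control, DESeq2 called 0 in each, and voom with quality weights called 0 in RalAB cKO against control, 2 in RalAB cKO against RalA cKO and 1 in RalA cKO against control. Of 34 tested exchange factors, 6 were higher and 1 lower in RalAB cKO against control, or 20.6% beside 18.4% of all genes. The count was 3 or 4 without mouse 2, 3 or 4 of control or of RalAB cKO. The genes with the smallest p were St5 (−1.25 ± 0.15), Hps4 (0.75 ± 0.13), Rab3il1 (1.43 ± 0.28) and Sbf1 (0.49 ± 0.15). Hps4 is part of the exchange factor for Rab32, and Rab3il1 acts on Rab8. Between RalAB cKO and RalA cKO, 2 were higher and 1 lower (8.82%, beside 11.5% of all genes), namely Rab3il1 (1.93 ± 0.29), Rin3 (2.44 ± 0.44) and St5 (−0.95 ± 0.15). In RalA cKO against control, Mon1a of the Rab7 exchange complex was higher (0.64 ± 0.16, adjusted p = 0.0469) and Sbf2 lower (−0.47 ± 0.10, adjusted p = 0.0233). Over single omissions the count there was 0 to 4.

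Among 36 tested GTPase-activating proteins, 8 were higher and 1 lower in RalAB cKO against control, or 25% beside 18.4% of all genes. This count was 2 to 5 without RalA cKO mouse 1 or 4 or without mouse 2, 3 or 4 of control or of RalAB cKO. The leading genes were Tbc1d9b (0.54 ± 0.10), Tbc1d2b (0.89 ± 0.20), Tbc1d22a (0.47 ± 0.12) and Sgsm1 (−0.83 ± 0.24). Against RalA cKO, Tbc1d1 (0.70 ± 0.21) and Tbc1d2b (0.64 ± 0.20) were higher (5.56%, beside 11.5% of all genes). The Tbc1d2b call against RalA cKO was lost with library totals, no filter, mouse number as a block or length offsets, and in 8 of 12 single omissions, with a lowest value of 0.27 (adjusted p = 0.602). That of Tbc1d1 was lost with the Y-linked covariate and in 8 of 12 single omissions (adjusted p up to 0.297). In RalA cKO against control Tbc1d17 was higher (0.66 ± 0.16, adjusted p = 0.0327). Of 46 tested effectors, 6 were higher and 6 lower in RalAB cKO against control (26.1%, beside 18.4% of all genes), and 4 higher and 3 lower against RalA cKO (15.2%, beside 11.5%). That second count was 3 or 4 without RalA cKO mouse 2 or 4, control mouse 2 or 4, or any single RalAB cKO mouse. Rab11fip4, an effector of Rab11, averaged 13.3 ± 4.20 CPM in RalAB cKO (SD, n = 4), 33.5 ± 3.91 CPM in RalA cKO and 39.0 ± 2.77 CPM in control. It fell by 1.55 ± 0.18 against control and by 1.33 ± 0.18 against RalA cKO. Plekhm1 (0.64 ± 0.11) and Plekhm2 (0.70 ± 0.12), adaptors of lysosomes, were higher in RalAB cKO than in control, as was Ehbp1l1 (1.29 ± 0.28), an effector of Rab8. Ehbp1l1 (1.62 ± 0.29) and Rab11fip5 (1.24 ± 0.26) were higher than in RalA cKO, and Sh3tc2, an effector of Rab11 in myelinating Schwann cells, was lower (−0.73 ± 0.22). The calls of Sbf1, Mon1a, Sbf2, Tbc1d17, Tbc1d22a, Sgsm1 and Sh3tc2 were each lost when certain single mice were left out. Mon1a was called in only 3 of 12 single omissions. Its call was also lost with DESeq2 scaling, library totals, only the compared groups, mouse number as a block or length offsets. That of Sbf1 was lost with the block, length offsets or the Y-linked covariate. Length offsets also removed the calls of Sbf2, Sgsm1 and, against control, Tbc1d2b (adjusted p = 0.0741). Tbc1d17 was lost with the block and Tbc1d22a with the Y-linked covariate. None of 46 effectors was called in RalA cKO against control, where 12 had an unadjusted p under 0.05, DESeq2 called 2 and voom with quality weights called 5. Of 17 Rab genes outside the family list, 10 were tested and none was called by edgeR in any comparison. At an unadjusted p under 0.05 there were 2 in each comparison, and DESeq2 called 1 in RalA cKO against control and 0 in the others.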

How the data were processed

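RNA-seq libraries of 12 mice, 4 in each group, were grouped by the genotype in the labels. Per the labels' protocols, sorted cells were collected into Trizol and libraries made with a TruSeq Stranded mRNA kit. Per the submitters' processing notes, Trimmomatic 0.36, kallisto 0.44 and GRCm38.p6 were used, with the role of each not given in the sources used here, nor whether counting used the strand. Each deposited file lists transcripts with their estimated count, TPM and effective length. The estimated counts made by the authors were summed for each gene over 121104 transcripts matched to GENCODE vM21 and rounded. The 739 unmatched transcripts held 0.2185% to 0.2772% of counts. The deposited TPM values were summed for each gene and used for levels across genes and for shares. The authors' effective lengths were used only for length offsets, which is 1 of the alternatives.

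All 12 libraries were fitted with edgeR 4.0.16 (R 4.3.3), TMM scaling, a count filter (minimum 10, total 15) and robust quasi-likelihood tests, with Benjamini-Hochberg adjustment over 13456 genes at 0.05. The common coefficient of biological variation came to 0.199. Standard errors were taken as the size of the log2 difference over the root of its F statistic, and 95% intervals are unadjusted. Transcripts were tested in the same way. The fits were tested on simulated data. No pair of libraries within a group was a duplicate, at a chi-square of 9.09 to 39.5 per degree of freedom. Alternatives were DESeq2 1.42.0 scaling or test, library totals, no filter, 1 CPM in 4 libraries, limma 3.58.1 voom with quality weights, only the compared groups, mouse number as a block, length offsets, nuclear protein-coding genes, a covariate of summed Y-linked counts, and each mouse left out. Leaving out control mouse 1 and RalAB cKO mouse 1 together, and summing Rab4a with Gm20388, were added after seeing the data.

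Members described in every library were those called in any comparison and the 6 with the highest control TPM. Of each list of partners, up to 4 called genes with the smallest p were named. The members, lists and tests were chosen with earlier results of these data known. Mouse numbers 1 to 4 were used as names, and whether they pair the mice could not be decided here. Reads of overlapping or near-identical genes, such as Rab1a and Rab1b, can be divided wrongly, and Rab24, Rab3a, Rab6a and Rab10 overlap a gene on the opposite strand that is expressed here.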

Additional observations from a re-analysis of the deposited data

Results flagged for a closer look

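Of 99 groups of 4 mice checked, 7 had a mouse far from the other 3, where chance gives about 1 in 20. RalAB cKO mouse 1 was low for Rab11b, at 228.8 CPM beside 289.1 to 301.1 CPM in the other RalAB cKO mice. The same mouse was high for Rab30, at 7.646 CPM beside 5.308 to 5.674 CPM, and the whole Rab family held 0.415% of its TPM beside 0.408% to 0.409%. Control mouse 1 had a low Rab11a share of the Rab11 pair, at 36.77% of TPM beside 48.82% to 48.88% in the other control mice. Control mouse 3 had high marker sums of other cell types. Its neuronal markers summed to 277.4 CPM beside 146.0 to 163.3 CPM, its astrocyte markers to 660.4 CPM beside 398.2 to 419.4 CPM, and its endothelial markers to 59.26 CPM beside 22.21 to 27.37 CPM.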

How the results depend on the processing

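The calls of Rab6b and Rab37 in both comparisons with RalAB cKO, of Rab40c against control, and of Rab3d and Rab32 against RalA cKO held in every alternative and without each mouse. The count of called members in RalA cKO against control was 0, but 2 with the DESeq2 test, 6 with voom quality weights, 0 to 2 with single mice left out and 5 with control mouse 1 and RalAB cKO mouse 1 both left out. In RalAB cKO against control it was 10, but 6 with transcript length offsets and 4 to 12 with single mice left out. Against RalA cKO it was 9, and 5 to 10 with single mice left out. With mouse number as a replicate block, the counts were 7 in RalAB cKO against control, 6 against RalA cKO and 0 in RalA cKO against control. Correlations of same-numbered mice were −0.198 to 0.175. They were all positive in RalA cKO against control (0.0624 to 0.175) and all negative in RalAB cKO against control (−0.185 to −0.0752). Mice of different numbers were not correlated for comparison, so these values cannot decide whether the numbers pair the mice. Scaling by library totals alone moved the median of all genes by −0.116 in RalA cKO and −0.09 in RalAB cKO against control. Over all alternatives the sign turned in at least 1 for 12 of 41 members in RalAB cKO against control, 17 against RalA cKO and 13 in RalA cKO against control, none of them called. Among the members described in every library, these were, in RalAB cKO against control, Rab7 (−0.0454 with library totals, −0.0564 to 0.12 with single mice left out, −0.0033 without RalAB cKO mouse 3, −0.0094 without both mice 1) and Rab33a (0.0036 with DESeq2 scaling, 0.0052 with its test, 0.0137 with voom, −0.0908 to 0.0452 with single mice left out, 0.11 without both mice 1). Against RalA cKO they were Rab1b (−0.10 with the Y-linked covariate, −0.0132 to 0.13 with single mice left out), Rab5c (−0.0171 with that covariate), Rab11b (−0.11 to 0.0148 with single mice left out, 0.0193 without both mice 1) and Ralb (−0.0317 to 0.0998 with single mice left out). In RalA cKO against control they were Rab7 (−0.16 to 0.0206 with single mice left out), Rab11a (−0.14 with length offsets) and Rab37 (0.0824 with the Y-linked covariate, −0.17 to 0.0621 with single mice left out). The cause was not tested. Rab13, Rab20, Rab27a and Rab27b rest on few counts, so a difference in them can go undetected at this depth. Intervals are for the difference between group means of 4 mice each, with the spread estimated over all libraries together.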
